A study of Mus musculus with 45 samples.

Results

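The ion channel and transmitter receptor genes of differentiating mouse embryonic stem cells (mESCs) were followed through 45 bulk RNA-seq libraries. Members were all genes of the deposited table whose symbol opens with the stem of a family of potassium channels (Kcn), sodium channels (Scn), calcium channels (Cacn), ionotropic or metabotropic glutamate receptors (Gri, Grid, Grm), GABA-A receptors (Gabr), glycine receptors (Glr) or nicotinic acetylcholine receptors (Chrn). This gave 147 members of 11220 listed genes, in 20 families. The largest were the voltage-gated potassium channels (34 genes) and the GABA-A receptors (15 genes). The symbols also brought in 3 genes that encode no channel or receptor subunit: Grid2ip and Kcnrg, which encode proteins that bind channels or receptors, and the antisense RNA Kcnq1ot1. All 147 members passed the filter on low levels.

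Excitable cells set their voltage with these proteins. Voltage-gated sodium channels raise the membrane potential in an action potential, voltage-gated calcium channels pass the calcium that triggers transmitter release or contraction, and potassium channels hold and restore the resting voltage. Fast excitation in the central nervous system runs through AMPA, kainate and NMDA receptors for glutamate, and fast inhibition in the spinal cord through GABA-A and glycine receptors. Nicotinic receptors carry excitation by acetylcholine at the nerve-muscle junction and in ganglia. Many of these genes are also transcribed, at lower levels, in progenitor cells, muscle and epithelia.

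The course was designed to make spinal sensory (dorsal) interneurons. The libraries formed 15 groups of 3, and per the series' design text the cultures came from 3 independent differentiations. D0 was the undifferentiated line. D3 was the stage of neuromesodermal progenitors, bipotent cells of the tail end of the embryo, after basic FGF and the WNT activator CHIR. All later groups had passed through that stage and all received 100 nM retinoic acid (RA). The M groups received RA together with 10 ng/ml BMP4, the dorsalizing signal of the spinal cord, for 48 h, and M4 was taken after the first 24 h of it. The B groups received RA alone for 24 h and then RA with the same dose of BMP4 for 24 h, and the R groups received RA and no BMP4. M against B therefore differs in both the duration and the start of BMP4. M and R were sampled on days 4, 5, 7 and 9, and B on days 5, 7 and 9. B6hr and R6hr were taken on day 4, 6 h into the second 24 h. The labels name no line of mESCs. Cultures were adherent and mixed, and in bulk RNA fewer cells of a type and less RNA per cell cannot be told apart.

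Values are the authors' normalized levels, which are not read counts. Level sums ran from 12245725 to 15868724 per library. The depth behind each value is unknown, and no interval for counting error can be given. A change is the log2 difference of level + 1, which understates changes of low genes. It was tested with limma-trend, adjusted by the Benjamini-Hochberg method over all 11220 genes and called under 0.05. Levels of different genes are not compared, since they are not per unit of length. Every listed gene had passed a deposited false discovery rate of 0.1 in at least 1 comparison of treated groups, so the shares given for all genes are those of a selected table. The comparisons of M and B with R on 1 day share their R libraries.

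Some libraries stood apart from others of their group. The summed level of 6 pluripotency markers was 15226, 13964 and 82802 in D0 replicates 1, 2 and 3, while the sum of 10 neuron markers was 15818, 19916 and 11505 in them. Pluripotency marker RNA was highest in D0 replicate 3. By the pluripotency sum D0 replicates 1 and 2 were closer to D3, where it was 2810, 6743 and 6043. The sum of 8 mesenchyme and smooth muscle markers was 27060, 33748 and 7900 in D0 and 2865, 13930 and 15073 in D3. By that sum D0 replicates 1 and 2 lay above D3, and D0 replicate 3 within its range. In D3 the neuron sum was 4455, 22094 and 23155, and in R7 it was 19433, 22804 and 5602, so D3 replicate 1 and R7 replicate 3 held less neuron marker RNA than the other two of their group. On day 5 the neuron sum was 8200, 2204 and 2214 in B5 and 2468, 7575 and 6220 in R5, so B5 replicate 1 was high and R5 replicate 1 low. Counts over members and families that rest on these libraries are given below also without them. Of 12 skeletal and 9 cardiac muscle markers, Ckm, Myf6 and Myl2 are not listed, and no listed marker was at 0 in any library.

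Over time, members were called more often than all genes of the table in one direction, up in most steps and down at the start of RA. In D3 against D0, 71 members rose and 12 fell, that is 48.3% and 8.16% of members against 30.9% and 24% of all genes. Their median change was 0.956 on the log2 scale, against 0.071 for all genes. In R4 against D3, after the first 24 h of RA, most called members were lower: 7 rose and 36 fell (4.76% and 24.5%, against 11.7% and 12.6% of all genes). The member median was -0.549, against -0.007 for all genes. Later in each condition the members mostly rose again. In R9 against R5, 50 rose and 6 fell (all genes 17.7% and 21.5%), and in B9 against B5, 58 rose and 9 fell (all genes 20.4% and 23.2%). In M9 against M5, 47 rose and 8 fell (all genes 14.4% and 11.4%). The member medians of these 3 changes were 0.421, 0.66 and 0.607, beside all-gene medians of -0.036, -0.009 and 0.035. Pluripotency markers moved with the changes in R and B, where all 6 rose, with sums of 5396 to 10337 in R9, 467 to 1125 in R5, 4189 to 9866 in B9 and 692 to 1824 in B5. In M9 against M5, 0 rose and 2 fell, with sums of 761 to 1611 in M9 and 1712 to 4240 in M5. Their part in the member counts was not tested.

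Between treatments the members moved both ways. In M4 against R4, 2 were higher and 17 lower (all genes 6.76% and 7.37%). In B5 against R5, 5 were higher and 6 lower (all genes 2.76% and 3.23%), and in M5 against R5 the counts were 25 and 45 (all genes 21% and 23.3%). In M5 against B5, 14 were higher and 20 lower (all genes 8.57% and 9.23%). On day 7 the counts were 43 higher and 49 lower in M7 against R7 (all genes 22.9% and 20.6%) and 29 and 49 in M7 against B7 (all genes 21.7% and 19.9%). In B7 against R7, 27 were higher and 12 lower (all genes 12.1% and 11.6%). On day 9 the counts were 36 and 40 in M9 against R9 (all genes 27.5% and 23.5%) and 28 and 41 in M9 against B9 (all genes 27.8% and 23.7%). In B9 against R9 they were 16 and 11 (all genes 6.12% and 5.71%). The members' shares were near the background in B5 against R5. In M9 against B9 the share of members higher was below it, at 19.0%, and the share lower above it, at 27.9%. The shares were well above the background for the members lower in M7 against B7, 33.3%, and in M7 against R7, 33.3%.

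**Figure D1:**
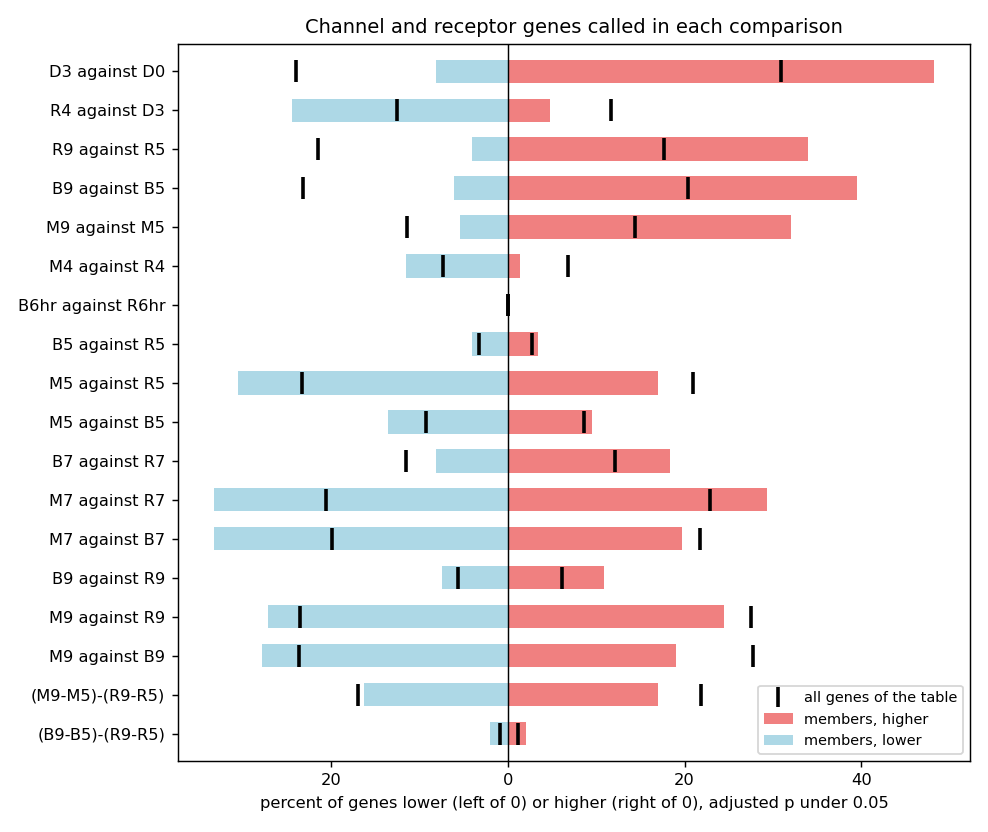
Percent of the 147 members (bars) and of all 11220 genes (black ticks) that were lower (left of 0) or higher (right of 0) at an adjusted p under 0.05, for each comparison. The bar of D3 against D0 reaches 48.3% on the higher side, against 30.9% of all genes.

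Several of these counts leaned on single libraries. The D3 against D0 total of 83 was 77 without D0 replicate 3, 83 without D3 replicate 1 and 71 with D0 replicate 3 as the only D0 library, whose spread is then assumed to be that of the other groups. The 92 of M7 against R7 became 88 without R7 replicate 3. The R4 against D3 total of 43 was 27 without D3 replicate 2 and 28 without D3 replicate 3, and 51 without D3 replicate 1. The 19 of M4 against R4 became 6 and 12 without M4 replicates 2 and 3, and 11 and 9 without R4 replicates 1 and 3. The 11 of B5 against R5 became 5 without B5 replicate 2 and 7 without R5 replicate 3. It was 8 without B5 replicate 1 and 10 without R5 replicate 1, and the 70 of M5 against R5 was 72 without R5 replicate 1. The 34 of M5 against B5 became 20 without M5 replicate 2 and 21 without B5 replicate 3. The 39 of B7 against R7 became 21 without B7 replicate 1 and 21 without R7 replicate 3. The 27 of B9 against R9 became 13, 16 and 17 without B9 replicates 1, 2 and 3, and 14 and 13 without R9 replicates 2 and 3.

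The group in which a member's mean log2 level was highest gives a second view of the course. It was D3 for 33 members, 22.4%, while D3 was the highest group of 8.89% of all genes. B9 held the highest mean of 20 members (13.6%, against 5.9% of all genes) and M9 of 18 (12.2%, against 5.8%). B7 held that of 17 (11.6%, against 5.9%) and M7 of 11 (7.5%, against 8.3%). D0 and R7 each held 10 (6.8%, against 16.4% of all genes in D0 and 4.99% in R7), and R9 held 9 (6.1%, against 4.9%). The remaining 8 groups held between 0 and 5 (0% to 3.4%, against 1.4% to 11.7% of all genes). GABA-A receptor genes were among the 33, such as Gabra3, Gabra4, Gabra5, Gabrb2 and Gabrr1. Without D3 replicate 1 and R7 replicate 3, D3 was highest for 43 members (29.3%, against 11.1% of all genes) and R7 for 11 (7.48%, against 7.74%).

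**Figure D2:**
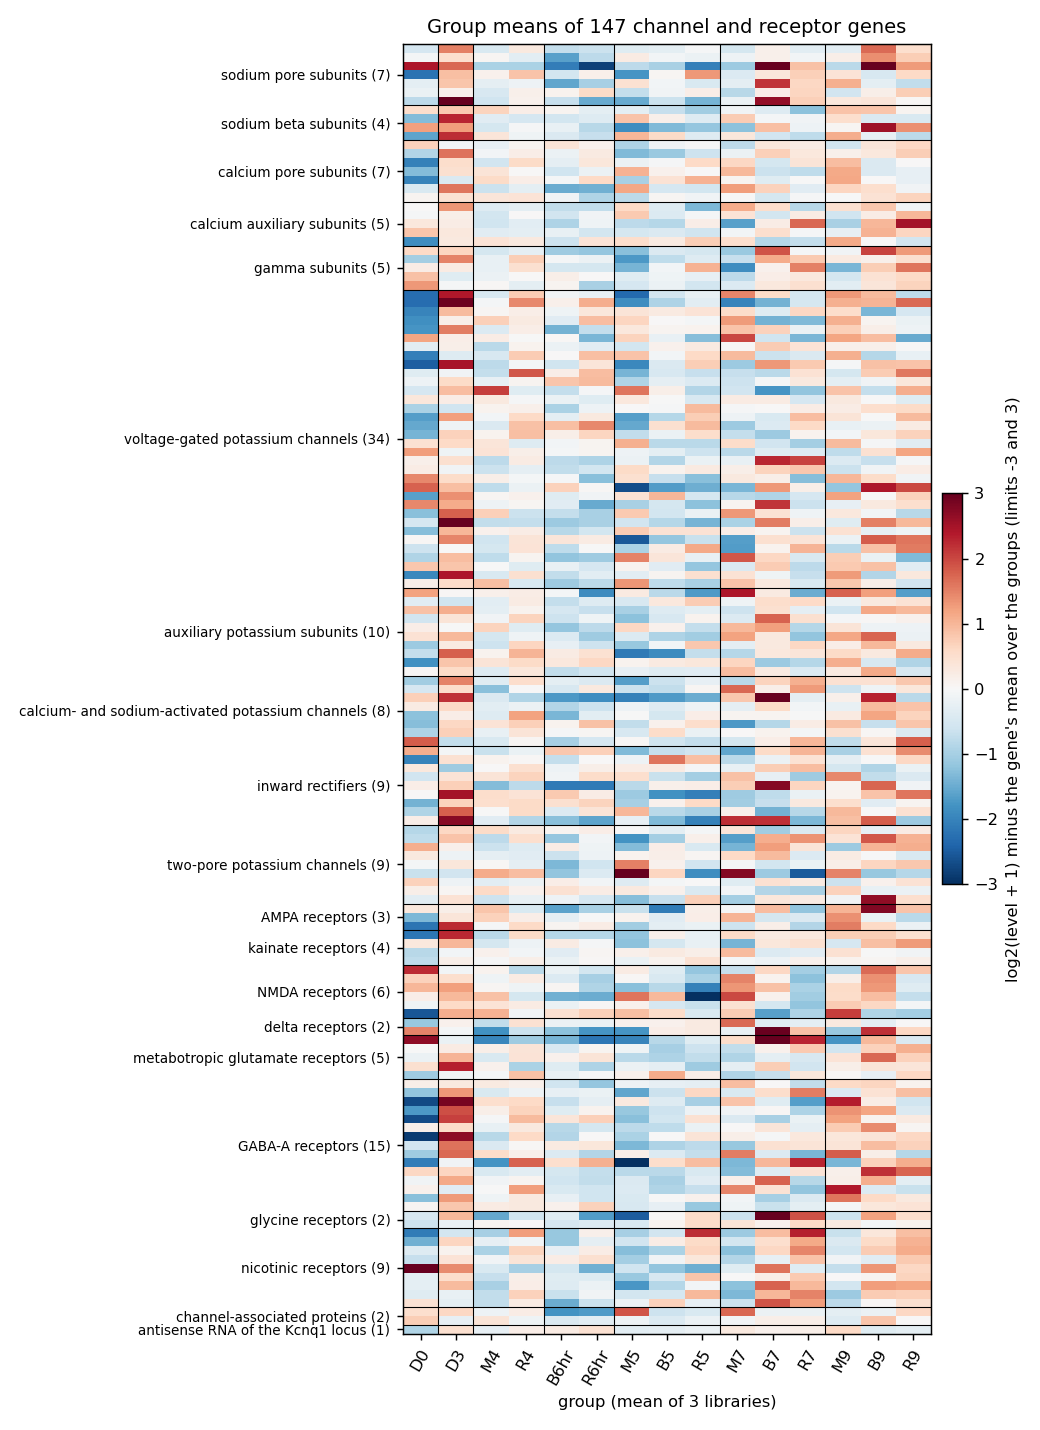
Mean log2(level + 1) of each of the 147 members (rows, by family) in the 15 groups (columns), after subtracting the member's mean over the groups. Red marks groups above the member's own mean and blue those below, and the D3 column is red in many potassium channel and GABA-A receptor rows.

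AMPA receptors, the main fast excitatory receptors, have 3 listed subunit genes, and they followed different courses. Gria4 read 846, 798 and 938 in D3, against 51.6, 27.8 and 41.4 in D0 (log2 change 4.43, SE 0.24, adjusted p = 4.7e-16). The groups did not overlap. After the RA step it stood at 245, 269 and 316 in R4, all below D3, and on day 9 at 513, 567 and 499 in M9, 307, 269 and 252 in B9 and 176, 175 and 136 in R9. Every M9 library lay above every B9 library, and every B9 library above every R9 library. Gria4 rose in M9 against M5 by 2.56 on the log2 scale. Gria3 also rose in M, by 1.25 in M9 against M5. It read 675, 929.6 and 718 in M9, against 200.3, 196 and 124 in R9, with no overlap, and in R9 against R5 it fell (log2 change -1.01, SE 0.23, adjusted p = 0.00083).

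Gria1, the subunit best known from activity-dependent synapses, had its highest levels in B9. It read 138, 71.4 and 80.1 in B9, against 3.69, 1.04 and 2.35 in B5 (log2 change 4.88, SE 0.78, adjusted p = 1.2e-05). All B9 libraries stood far above B5. On the same day it read 17.2, 20.4 and 52.3 in M9 and 44.1, 28.4 and 10.2 in R9, all below B9. Gria1 did not pass the test in M9 against R9 (adjusted p = 0.88) or in R9 against R5 (adjusted p = 0.51). Its change over days 5 to 9 was 4.20 larger in B than in R on the log2 scale (SE 1.10, adjusted p = 0.033). The call of Gria1 in the difference between the B and R changes was lost without B9 replicate 1 or 3, or B5 replicate 2 or 3, or R9 replicate 2 or 3, or R5 replicate 2 or 3 (adjusted p = 0.054 to 0.13).

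NMDA receptors need an obligatory subunit, Grin1, together with Grin2 or Grin3 subunits that set their kinetics and calcium entry. Of the 6 NMDA genes, 5 were higher in M7 than in R7 and none was lower (all genes 22.9% and 20.6%). In B7, 4 were higher than in R7 (all genes 12.1%). Without R7 replicate 3 these counts were 5 in M7 and 1 in B7. Grin2c, a subunit known from cerebellar granule cells, gave the widest gap of the family on day 5. It read 392, 569 and 621 in M5 and 730.2, 226 and 225 in B5, against 12.8, 53.4 and 11.1 in R5. All BMP4 libraries stood above all R5 libraries, M5 by 4.64 (SE 0.79) and B5 by 4.00 (SE 0.79) on the log2 scale. The adjusted p-values were 1.7e-05 and 0.0019. At the 6 h point it read 14.9, 88.2 and 168 in B6hr, against 13.5, 94.8 and 155 in R6hr, and the groups covered the same range. By day 9 it stood at 147, 315 and 324 in M9, 379, 283 and 307 in B9 and 139, 138 and 55.8 in R9, and the M change over days 5 to 9 minus the R change was -3.38 on the log2 scale (SE 1.12, adjusted p = 0.017). All differences of 2 changes are given this way, with the R change subtracted. The call of Grin2c in the difference between the M and R changes was lost without R5 replicate 3 (adjusted p = 0.051). On day 9 itself neither M9 nor B9 passed against R9 for Grin2c (adjusted p = 0.18 and 0.18).

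Grin3a, which lowers calcium entry through the receptor, had its highest mean in M9. It read 263, 442 and 210.2 in M9, against 70.9, 35.5 and 18.7 in B9 and 35.1, 41.1 and 25.4 in R9. M9 did not overlap the other two. The M9 change was 3.09 against R9 (SE 0.50, adjusted p = 7.2e-06) and 2.97 against B9 on the log2 scale. Grin1, in contrast, was lowest in M9 on day 9, with 27.1, 17.3 and 27.3 in M9, 133, 152 and 148 in B9 and 75.3, 79.3 and 82.5 in R9, and the 3 groups did not overlap in any pair. M9 passed against both others, and B9 against R9 did not (adjusted p = 0.11). Grin1 read 22.5, 64.8 and 48.0 in D3, against 166, 202 and 282 in D0, the group with its highest mean (log2 change -2.33, SE 0.36, adjusted p = 1.6e-06). Its M and R changes over days 5 to 9 differed by a log2 of -3.12 (SE 0.51, adjusted p = 2e-05). The 6 pluripotency markers moved with it: 5 were lower in M9 than in R9, with sums of 761 to 1611 in M9 and 5396 to 10337 in R9, and their part was not tested. Grin2a and Grin2b are the subunits of most adult receptors. Grin2a read 19.9, 21.2 and 16.3 in M7, against 2.74, 2.89 and 0.970 in R7, and Grin2b read 32.5, 12.8 and 21.8 in M7, against 4.44, 5.72 and 1.61 in R7. Both were low genes that were higher in every M7 library.

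Of the 4 kainate receptor genes, 1 was higher and 1 lower in M7 than in R7, shares near those of all genes (22.9% and 20.6%). The counts were the same without R7 replicate 3. Grik3 was lower in M than in R at days 5, 7 and 9. On day 9 it read 1258, 1122 and 1121 in M9, 2676, 3004 and 3626 in B9 and 4485, 3444 and 4179 in R9. M9 lay below both, and B9 and R9 overlapped, with a change of -1.78 in M9 against R9 (adjusted p = 5.8e-10). B9 against R9 did not pass (adjusted p = 0.13). Grid2ip, which encodes a scaffold protein, was highest in M5 on day 5. It read 81.4, 124 and 103 in M5, 21.2, 19.2 and 12.2 in B5 and 22.3, 15.2 and 21.4 in R5, with M5 above both (log2 change 2.50 against B5 and 2.33 against R5).

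Among the 5 metabotropic glutamate receptors, which signal through G proteins, Grm2 marked B7. Grm2, a presynaptic receptor that dampens transmitter release, read 2425, 2016 and 2275 in B7, against 344, 288 and 99.5 in R7 (log2 change 3.37, SE 0.83, adjusted p = 0.0045). In M7 it read 34.4, 55.8 and 134, below B7 in every library (log2 change -5.11, SE 0.83, adjusted p = 1.2e-05). It read 8.86, 81.6 and 71.9 in D3, against 348, 671 and 96.7 in D0 (log2 change -2.86, SE 0.83, adjusted p = 0.0038). No library outside B7 reached the B7 range, and the highest of them was D0 replicate 2. With D0 replicate 3 as the only D0 library the change was -1.32 and its adjusted p was 0.35, with that library assumed to vary like the other groups. The call of Grm2 in D3 against D0 was lost without D3 replicate 1 (adjusted p = 0.063). Without it the change was -1.87. By day 9 Grm2 read 14.6, 8.52 and 14.2 in M9, 106, 84.1 and 71.7 in B9 and 57.1, 23.8 and 23.9 in R9, so that every B9 library lay above the other groups of its day and below B7. M9 passed against B9 (log2 change -2.73), and B9 against R9 did not (adjusted p = 0.28).

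Kcnmb2, an auxiliary subunit that inactivates the large calcium-activated potassium channel, had the same B7 peak. It read 281, 295 and 410.3 in B7, against 12.4, 15.2 and 1.69 in R7 (log2 change 5.28, SE 0.81, adjusted p = 3e-05). In M7 it read 7.27, 13.7 and 43.3, lower than B7 (log2 change -4.21, SE 0.81, adjusted p = 0.00011). Neither R7 nor M7 overlapped B7. Without R7 replicate 3, the change in B7 against R7 was 4.46 for Kcnmb2 and 2.82 for Grm2 (adjusted p = 0.00089 and 0.034). On day 9 Kcnmb2 stood at 8.73, 6.37 and 18.1 in M9, 90.1, 37.9 and 34.0 in B9 and 6.33, 5.63 and 2.84 in R9, and B9 was again above R9 (log2 change 3.13). The call of Kcnmb2 in B9 against R9 was lost without B9 replicate 1, or R9 replicate 3 (adjusted p = 0.056 to 0.067). Other members that rose in B7 against R7 were Kcnj8 (log2 change 3.52), a pore of ATP-sensitive potassium channels, Kcnh6 (log2 change 2.78), a channel of the ERG type, and Gabrg3 (log2 change 2.59). Kcnh6 read 108, 58.9 and 51.8 in B7, against 7.01, 9.86 and 11.2 in R7, and Gabrg3 read 27.0, 24.5 and 20.6 in B7, against 6.22, 1.99 and 2.24 in R7. Both were above R7 in every B7 library. Beside these genes, 3 of 10 neuron markers rose and 0 fell (all genes 12.1% and 11.6%). The summed level of the 10 was 44859 to 61273 in B7 and 5602 to 22804 in R7. Kcnj8 was also high in M7, where that sum was 2195 to 7423. The part of the neuron markers in these changes was not tested.

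The promoters of 5 members with leading changes are shown to compare their base composition and motifs. They are from RefSeq on GRCm38.p6 and run 5′ to 3′ from 250 bases before to 50 bases after the gene's start, with capitals for the 2 motifs found in them. TTCAGCACC is the left part of the RE1 element that the neuronal repressor REST binds, and GGCGGG is the core of a GC box. Both were sought on both strands, so a match may read GGTGCTGAA or CCCGCC. Grm2 and Kcnmb2 are the pair that peaked in B7, at chr9:106656060-106656359 (minus strand) and chr3:31902453-31902752 (plus strand).
Grm2: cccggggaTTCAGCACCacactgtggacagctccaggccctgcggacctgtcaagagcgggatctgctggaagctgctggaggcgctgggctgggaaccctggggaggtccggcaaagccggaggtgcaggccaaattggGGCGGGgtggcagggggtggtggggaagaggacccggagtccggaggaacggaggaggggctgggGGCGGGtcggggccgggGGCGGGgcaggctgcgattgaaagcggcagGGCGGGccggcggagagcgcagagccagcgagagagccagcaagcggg
Kcnmb2: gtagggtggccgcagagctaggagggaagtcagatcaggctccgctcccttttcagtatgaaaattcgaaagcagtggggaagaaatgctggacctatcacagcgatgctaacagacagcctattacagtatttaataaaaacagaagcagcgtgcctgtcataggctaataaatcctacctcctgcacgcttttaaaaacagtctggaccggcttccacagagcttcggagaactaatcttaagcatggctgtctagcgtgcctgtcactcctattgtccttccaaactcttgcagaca
The Grm2 window holds 72.0% G and C, 1 TTCAGCACC and 4 GGCGGG. The Kcnmb2 window holds 47.7% G and C and neither motif. The B7 pair thus shares neither motif in these windows. Grin2c, which was higher in both BMP4 groups of day 5, starts at chr11:115267194-115267493 (minus strand).
Grin2c: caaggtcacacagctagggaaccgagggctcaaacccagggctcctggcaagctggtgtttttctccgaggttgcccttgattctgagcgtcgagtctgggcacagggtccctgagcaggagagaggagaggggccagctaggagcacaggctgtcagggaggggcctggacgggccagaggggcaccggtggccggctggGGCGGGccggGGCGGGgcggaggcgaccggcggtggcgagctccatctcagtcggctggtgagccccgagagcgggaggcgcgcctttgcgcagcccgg
Chrna3 at chr9:55026513-55026812 and Gabrg1 at chr5:70842568-70842867, both on the minus strand, are a pair that was lower in M.
Chrna3: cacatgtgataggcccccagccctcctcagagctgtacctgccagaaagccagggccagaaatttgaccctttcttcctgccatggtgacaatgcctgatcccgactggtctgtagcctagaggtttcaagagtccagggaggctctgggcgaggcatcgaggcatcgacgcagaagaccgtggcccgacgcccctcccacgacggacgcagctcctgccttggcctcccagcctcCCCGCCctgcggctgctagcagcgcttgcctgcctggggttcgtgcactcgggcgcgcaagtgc
Gabrg1: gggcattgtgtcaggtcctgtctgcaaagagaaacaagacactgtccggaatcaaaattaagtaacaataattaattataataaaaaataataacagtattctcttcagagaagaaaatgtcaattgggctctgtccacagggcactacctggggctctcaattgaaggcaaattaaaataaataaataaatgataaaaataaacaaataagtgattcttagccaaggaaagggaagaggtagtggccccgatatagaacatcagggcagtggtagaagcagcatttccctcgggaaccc
Grin2c has 2 GGCGGG in 70.0% G and C, Chrna3 has 1 in 64.3%, and Gabrg1 has none in 38.3%. The 105 member genes with a RefSeq promoter have 140 windows, and 68 of these held GGCGGG (48.6%), against 35.3% of all 32851 windows. TTCAGCACC was in 2 member windows, of Grm2 and Kcnh6 (1.43%), and in 0.371% of all windows. The palindrome CAGCTG, an E-box, was in 32 member windows (22.9%), against 16.3% of all windows. No match here is shown to be a bound site.

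**Figure D3:**
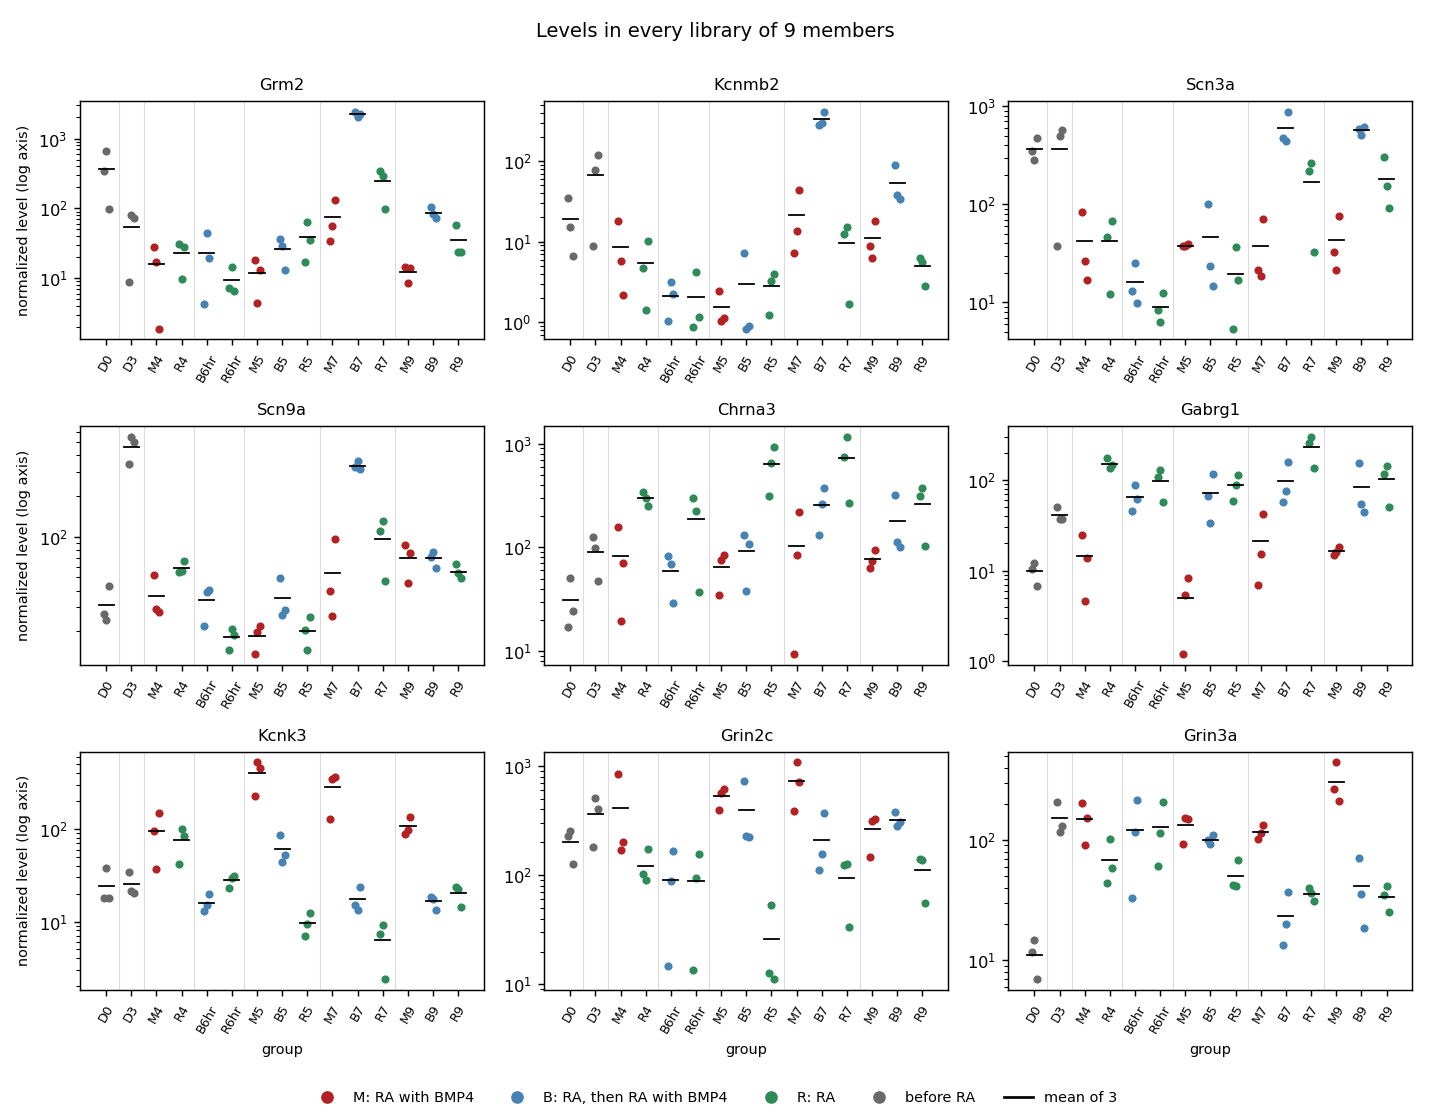
Normalized level (log axis) of Grm2, Kcnmb2, Scn3a, Scn9a, Chrna3, Gabrg1, Kcnk3, Grin2c and Grin3a in each library of the 15 groups, with a bar at the mean of 3. Grm2 and Kcnmb2 rise to a peak in B7, and Kcnk3 stands high in M5, M7 and M9.

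GABA-A receptors are chloride channels built of 5 subunits, and in immature neurons they can depolarize. Of their 15 genes, 10 rose in D3 against D0 and none fell (all genes 30.9% and 24%). In R4 against D3, 2 rose and 7 fell (all genes 11.7% and 12.6%). In M9 against M5, 11 rose and none fell (all genes 14.4% and 11.4%). Without D3 replicate 1, 10 rose in D3, and 1 rose and 8 fell in R4, and without D0 replicate 3, 9 rose in D3. Gabra3 read 455, 487 and 495 in D3, against 6.96, 11.8 and 9.35 in D0 (log2 change 5.56, SE 0.39, adjusted p = 1.4e-13). In R4 it read 82.6, 72.3 and 162, below every D3 library. By day 9 M9 was again high, at 301, 305 and 418, against 85.3, 71.7 and 74.2 in B9 and 45.3, 65.7 and 27.1 in R9, with no overlap (log2 change 2.94 in M9 against R9). Gabrb2 rose by 5.54 and Gabra5 by 4.74 in D3 against D0 on the log2 scale. Both were also lower in R4 than in D3. With D0 replicate 3 as the only D0 library, the D3 changes of Gabra3, Gabrb2 and Gabra5 were 5.53, 5.59 and 4.25.

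Gabrg1, a gamma subunit, was lower in M than in R on every day measured. It read 1.20, 5.37 and 8.20 in M5, 66.3, 33.4 and 116 in B5 and 58.6, 88.1 and 114 in R5. All M5 libraries lay below all others of the day, with a log2 change of -4.07 against R5 (SE 0.58, adjusted p = 1.3e-06) and -3.68 against B5. The gap was there on day 4, with 24.7, 4.57 and 13.8 in M4, against 175, 134 and 144 in R4 (log2 change -3.56). It remained on day 7, with 6.85, 15.4 and 41.6 in M7, against 257, 296 and 135 in R7, and on day 9, with 15.0, 15.9 and 18.0 in M9, against 116, 141 and 50.3 in R9. Gabrg1 lies at chr5:70751047-70842617 (mm10) beside Gabra2 at chr5:70957597-71095849, and Gabra2 took the same side on day 5, at 2.47, 3.02 and 5.87 in M5 and 16.7, 15.3 and 30.9 in R5 (log2 change -2.19). Gabra4, further along at chr5:71569749-71658308, took that side on day 5, at 32.5, 40.7 and 33.4 in M5, 61.0, 40.9 and 54.3 in B5 and 62.2, 71.5 and 79.1 in R5 (log2 change -0.98 in M5 against R5), and not on day 9. It then read 167, 219.8 and 223 in M9, 202, 177 and 167 in B9 and 51.8, 69.1 and 55.1 in R9, with both BMP4 groups above R9. The changes of Gabra4 over days 5 to 9 exceeded that in R by 2.75 in M and 2.07 in B.

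Gabrp and Gabre, subunits better known outside the brain, were higher in M9. Gabrp read 40.2, 50.6 and 68.8 in M9, 5.33, 7.92 and 6.30 in B9 and 7.21, 4.38 and 4.53 in R9, with a change of 3.08 in M9 against R9 and 2.83 in M9 against B9. Gabre read 66.9, 97.2 and 95.0 in M9, 31.4, 20.4 and 29.9 in B9 and 10.4, 11.6 and 16.1 in R9. For both genes M9 stood clear of the other 2 groups. Gabre, Gabra3 and Gabrq neighbour each other on the X chromosome, and all 3 had their highest day 9 mean in M9. Of 6 surface epithelium markers, 1 rose and 0 fell in M9 against R9, and their sums overlapped, at 3805 to 5534 in M9 and 4254 to 5378 in R9.

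The glycine receptor is the other chloride channel of the spinal cord. Its alpha subunit Glra1 read 4.57, 10.4 and 33.2 in M7, 146, 150.4 and 290.3 in B7 and 118, 157 and 22.6 in R7. M7 was below B7 in every library (log2 change -3.85, SE 0.90, adjusted p = 0.00097), and was lower than R7 in the test (adjusted p = 0.02) although R7 replicate 3 fell into the M7 range. On day 5 it read 0.996, 1.90 and 6.75 in M5, 48.0, 8.81 and 17.3 in B5 and 16.6, 36.3 and 38.0 in R5, with M5 lower than both (log2 change -2.54 and -3.05). The call of Glra1 in M5 against B5 was lost without M5 replicate 1 or 2, or B5 replicate 1 or 3 (adjusted p = 0.11 to 0.19). The beta subunit Glrb, which anchors the receptor at synapses, read 174, 192 and 221 in M5, against 287, 468 and 454 in R5 (log2 change -1.01). On day 7 the ranges of Glrb in M7 and R7 overlapped, at 272, 363 and 444 in M7 and 478, 571 and 249 in R7.

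Nicotinic receptor genes were lower in M than in R on days 5, 7 and 9. Of 9, 6 were lower in M5 than in R5, 8 were lower in M7 than in R7 and 6 were lower in M9 than in R9. The shares of all genes lower were 23.3%, 20.6% and 23.5%. None of the 9 was higher in these 3 comparisons. Without R7 replicate 3, 7 were lower in M7. In the B groups, 3 of 9 were lower in B5 (all genes 3.23%) and 1 was lower in B9 (all genes 5.71%). Without B5 replicate 1, 2 were lower in B5. In B7, 1 was higher and 1 lower, near the shares of all genes (12.1% and 11.6%). Chrna3, Chrnb4 and Chrna5, subunits of the ganglionic receptor, lie side by side on chromosome 9 at chr9:55010111-55026562, chr9:55028154-55048779 and chr9:54980880-55007779 (mm10). Chrna3 read 34.7, 75.3 and 84.5 in M5, 131, 38.1 and 109 in B5 and 315, 646 and 931 in R5. Both BMP4 groups were below R5, with log2 changes of -3.23 in M5 (SE 0.84, adjusted p = 0.0023) and -2.80 in B5 (adjusted p = 0.042). The call of Chrna3 in B5 against R5 was lost without B5 replicate 1 or 2, or R5 replicate 2 or 3 (adjusted p = 0.062 to 0.25). On day 7 it read 9.41, 84.4 and 219 in M7, 131, 260.2 and 375 in B7 and 746, 1158 and 269 in R7, and the B7 and R7 ranges overlapped, while M7 stayed below R7 (log2 change -3.41, and -2.17 without M7 replicate 1).

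The neighbours of Chrna3 were also lower in M5 than in R5. Chrna5 read 22.4, 21.8 and 21.3 in M5, 40.2, 20.5 and 25.7 in B5 and 64.9, 81.4 and 116 in R5, with a log2 change of -1.58 in B5 against R5. The call of Chrna5 in B5 against R5 was lost without B5 replicate 2, or R5 replicate 3 (adjusted p = 0.13). Chrnb4 read 127, 172 and 159.8 in M5, 183, 111 and 177 in B5 and 384, 457 and 478 in R5. For both genes every M5 and B5 library lay below every R5 library, and Chrnb4 passed in M5 (adjusted p = 0.035) but not in B5 (adjusted p = 0.12). Chrna4 and Chrnb2 form the main brain receptor. Chrna4 read 487, 573 and 651 in M9 and 2183, 2029 and 858 in R9 (log2 change -1.46), and Chrnb2 read 138, 99.5 and 167 in M9 and 543, 465 and 332 in R9 (log2 change -1.72). In both, M9 was below R9 in every library. The call of Chrna4 in M9 against R9 was lost without M9 replicate 1 or 2, or R9 replicate 1 or 2 (adjusted p = 0.062 to 0.11). Of the muscle subunits, Chrnb1 read 66.3, 38.6 and 31.6 in M5, 82.4, 68.2 and 55.9 in B5 and 166, 188 and 156 in R5, lower in both BMP4 groups. The fetal subunit Chrng read 1.18, 4.66 and 9.88 in M7, 29.5, 32.7 and 24.4 in B7 and 22.5, 19.1 and 13.8 in R7, lowest in M7. Skeletal muscle markers also moved in M7 against R7: of 10, 9 fell and 1 rose. Their sums were 1119 to 1280 in M7 and 2163 to 3132 in R7. In B7, where Chrng was highest, their sums were lower still, at 643 to 902. On day 5, where Chrnb1 was lower in M5, they were 774 to 866 in M5 and 467 to 863 in R5. Neuron markers fell in M7 against R7 too, 7 of 10, with sums of 2195 to 7423 in M7 and 5602 to 22804 in R7. The part of either in the nicotinic change was not tested.

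**Figure D4:**
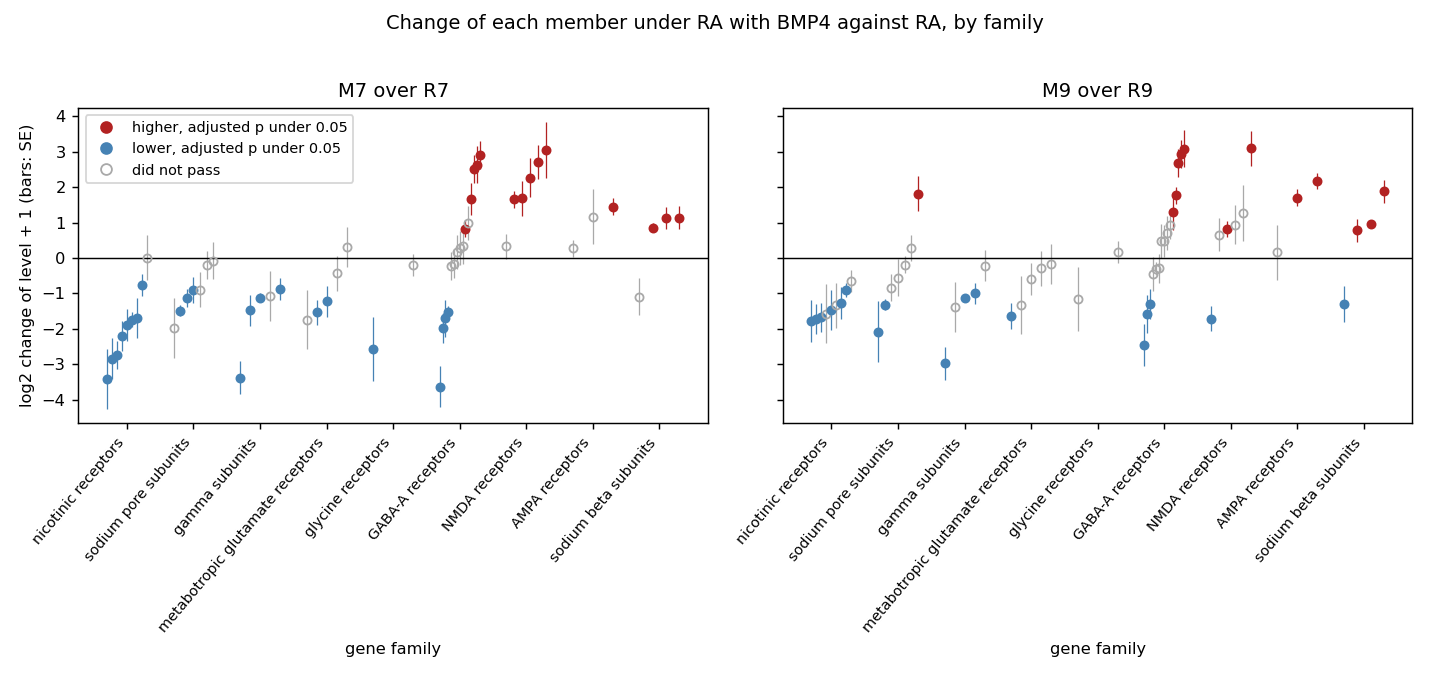
log2 change of each member of 9 families in M7 over R7 and in M9 over R9, with bars of 1 SE and colours for the call at an adjusted p under 0.05. All nicotinic receptor genes called in either panel lie below 0, and all NMDA and sodium beta genes called in M7 over R7 lie above it. Without R7 replicate 3, 3 sodium beta genes were higher and 1 was lower in M7 than in R7.

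Sodium channels carry the upstroke of the action potential, and their pore genes separated M7 from B7. Of 7 pore genes, 5 were lower in M7 than in B7 and none was higher (all genes 19.9% and 21.7%). Scn3a, the pore of embryonic neurons, read 21.5, 18.4 and 71.5 in M7, 479, 446 and 882 in B7 and 218, 261 and 32.3 in R7. M7 was below B7 in every library (log2 change -4.18, SE 0.85, adjusted p = 0.00024), and R7 replicate 3 lay within the M7 range. On day 9 it read 32.7, 21.1 and 76.5 in M9, 592, 509 and 608 in B9 and 305, 152 and 91.4 in R9, with M9 again below B9 (log2 change -3.88). Scn3a rose in R9 against R5 by 3.33 and in B9 against B5 by 4.06, while M9 against M5 did not pass (adjusted p = 0.99). The difference of the M and R changes was -3.34 (SE 1.21, adjusted p = 0.028). The call of Scn3a in the difference between the M and R changes was lost without M9 replicate 1 or 2, or R9 replicate 1, or R5 replicate 1 (adjusted p = 0.05 to 0.092).

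Scn9a, a pore gene known from pain-sensing neurons, was high at 2 points of the course. It read 348, 547 and 499 in D3, against 27.0, 24.0 and 42.9 in D0 (log2 change 3.87, SE 0.37, adjusted p = 1.8e-10), and 54.6, 55.5 and 65.7 in R4, below every D3 library. On day 7 it was high again in B7. It read 39.7, 26.1 and 96.2 in M7, 326, 363 and 318 in B7 and 110.4, 131 and 47.4 in R7, with B7 above both (log2 change 1.91 against R7). By day 9 the ranges of M9, B9 and R9 overlapped, at 86.2, 45.5 and 76.0 in M9, 70.6, 77.7 and 59.0 in B9 and 62.4, 53.6 and 49.3 in R9. Scn3a, Scn9a, Scn1a and Scn7a lie on chromosome 2, with Scn3a at chr2:65457118-65567627 and Scn9a at chr2:66480080-66634962 (mm10). Scn1a read 60.5, 85.1 and 125 in D3, against 25.4, 10.6 and 32.6 in D0, and Scn7a read 8.79, 15.6 and 8.93 in D3, against 3.35, 6.34 and 3.97 in D0. Scn1a rose (log2 change 2.01) and Scn7a did not pass (adjusted p = 0.055).

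The beta subunits are small proteins that bind the pore and anchor it. Scn2b read 1978, 1648 and 1569 in D3, against 147, 134 and 146 in D0 (log2 change 3.59, SE 0.12, adjusted p = 4.3e-21), and 221, 289 and 232 in R4 (log2 change -2.80 against D3). On day 5 it read 612, 670.4 and 624 in M5, 360.4, 435 and 386 in B5 and 291, 239.6 and 272 in R5, and on day 9 522, 502 and 469 in M9, 290.1, 236 and 263 in B9 and 254, 241 and 270.1 in R9. M was above B and R on both days, and B was above R on day 5. The call of Scn2b in B5 against R5 was lost without B5 replicate 2 (adjusted p = 0.061). Scn4b, its neighbour on chromosome 9, was also high in D3, at 107, 95.3 and 133 in D3, against 5.75, 5.65 and 10.5 in D0. Scn3b, like the pore gene Scn3a, was lowest in M9 on day 9. It read 125, 84.3 and 166 in M9, 600.1, 769 and 661 in B9 and 359, 279 and 265 in R9, and rose by 3.87 in B9 against B5 and 2.52 in R9 against R5.

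**Figure D5:**
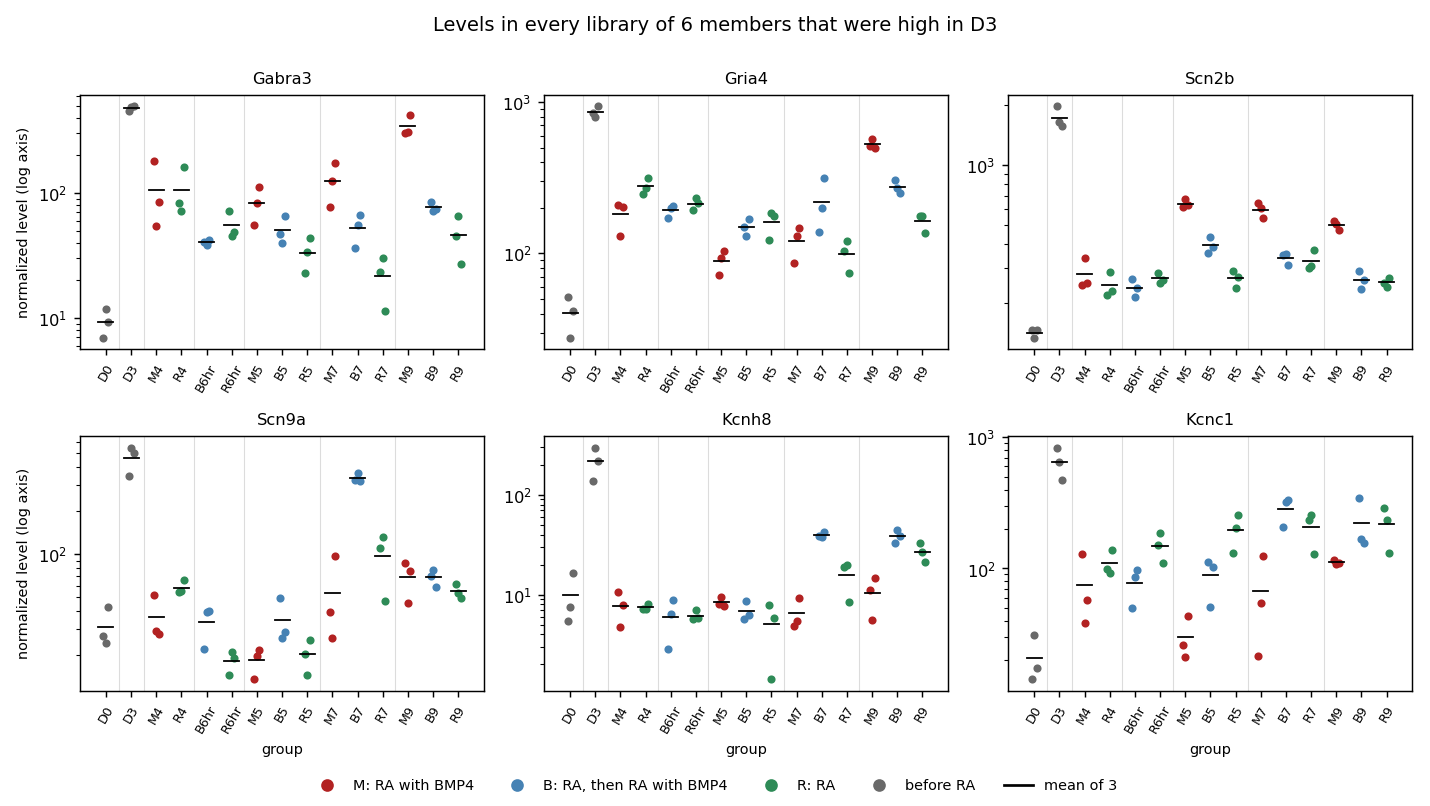
Normalized level (log axis) of Gabra3, Gria4, Scn2b, Scn9a, Kcnh8 and Kcnc1 in each library of the 15 groups, with a bar at the mean of 3. In all 6 every D3 library lies above every D0 library and every R4 library.

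Calcium channel genes moved both ways. The T-type pores Cacna1g and Cacna1h, which open near rest, took opposite sides of M5. Cacna1g read 389, 521 and 629.7 in M5, 2194, 746 and 1435 in B5 and 1258, 2539 and 2591 in R5, and Cacna1h read 1007, 1227 and 1307 in M5, 619.9, 281 and 289 in B5 and 271, 435 and 398 in R5. M5 was below R5 for Cacna1g (log2 change -2.00) and above it for Cacna1h (log2 change 1.70), with no overlap in either. By day 9 Cacna1g stood at 1662, 2864 and 2291 in M9 and 1191, 1083 and 443 in R9, and its M and R changes over days 5 to 9 differed by a log2 of 3.42 (SE 0.77, adjusted p = 0.00079). Cacna1a, a pore of transmitter release, read 357, 274 and 321 in M9, 585, 606 and 643 in B9 and 794, 620.0 and 789 in R9, lower in M9 (log2 change -1.21 against R9). Cacna1s, the pore of skeletal muscle, stayed low, at 24.7, 25.6 and 37.4 in M9 and 54.5, 44.5 and 41.9 in R9.

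The auxiliary subunit Cacna2d3 read 17.7, 28.3 and 19.5 in M9, 71.4, 95.9 and 94.4 in B9 and 269.7, 262 and 216 in R9. The 3 groups did not overlap, with log2 changes of -3.48 in M9 (SE 0.44, adjusted p = 1.2e-07) and -1.51 in B9 against R9. The same order held on day 7, with log2 changes of -3.34 in M7 and -1.50 in B7 against R7. The call of Cacna2d3 in B9 against R9 was lost without B9 replicate 1 or 3, or R9 replicate 1 or 2 (adjusted p = 0.05 to 0.086). The call of Cacna2d3 in B7 against R7 was lost without B7 replicate 1 or 2, or R7 replicate 2 (adjusted p = 0.055 to 0.067). Cacna2d1, its relative in muscle and sensory neurons, went the other way on day 7. It read 741, 638 and 1056 in M7, 518, 448 and 621 in B7 and 256, 294 and 115 in R7, with both BMP4 groups above R7. Of the 5 gamma genes, 4 were lower in M7 than in R7 and none was higher (all genes 20.6% and 22.9%). The gamma counts were the same without R7 replicate 3. Cacng6, a muscle subunit, read 8.29, 3.25 and 10.9 in M7, 26.2, 28.4 and 34.7 in B7 and 56.6, 83.3 and 107 in R7, and Cacng7, which escorts AMPA receptors, read 492, 448 and 531 in M7, 923, 1007 and 1011 in B7 and 1029, 1047 and 1116 in R7. M7 lay below both other groups for each gene.

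Voltage-gated potassium channels restore the resting voltage after a spike. Of 34 genes, 19 rose and 1 fell in D3 against D0 (all genes 30.9% and 24%). In R4 against D3, 2 rose and 11 fell (all genes 11.7% and 12.6%). Without D3 replicate 1, 17 rose and 1 fell in D3, and 2 rose and 12 fell in R4. Kcnh8, a channel of the ELK type, read 139, 299 and 220.2 in D3, against 5.42, 7.61 and 16.6 in D0 (log2 change 4.41, SE 0.41, adjusted p = 1.2e-10), and 7.24, 7.22 and 8.09 in R4 (log2 change -4.63 against D3). Kcnc1, which serves fast spiking, read 836, 651 and 474 in D3, against 14.3, 31.0 and 17.4 in D0 (log2 change 4.94, SE 0.47, adjusted p = 1.6e-10), and 99.9, 91.8 and 139.5 in R4. Kcna2, an axonal channel, read 259.9, 111 and 119 in D3, against 2.54, 0.896 and 8.57 in D0 (log2 change 5.24). In these 3 the D3 range lay above both D0 and R4, although D3 replicate 1 was the highest library for Kcnc1 and Kcna2 and the lowest for Kcnh8. Kcnc2, a relative of Kcnc1, was 1 of the 2 family members that rose in R4: it read 41.5, 77.6 and 47.7 in R4, against 13.7, 13.0 and 12.2 in D3 (log2 change 1.97, SE 0.40, adjusted p = 0.00034). M4 read 12.5, 4.58 and 8.92, below every R4 library (log2 change -2.59).

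Kcnc4, a relative of both, was high in the early M groups. It read 76.4, 72.9 and 78.5 in M4, against 12.8, 18.1 and 9.66 in R4 (log2 change 2.45, SE 0.48, adjusted p = 0.00062), and 43.9, 58.7 and 61.3 in M5, against 15.8, 4.38 and 9.62 in R5. M4 and M5 were above their R groups in every library, and on day 9 the M9 and R9 ranges overlapped, at 34.4, 14.0 and 64.6 in M9, 8.31, 10.5 and 11.7 in B9 and 33.1, 31.1 and 53.2 in R9. B9 was then the lowest (log2 change -1.81 against R9). The call of Kcnc4 in B9 against R9 was lost without B9 replicate 1, or R9 replicate 3 (adjusted p = 0.058 to 0.077). Kcna1, an axonal channel, was low in M5 and high in M9. It read 6.49, 13.0 and 12.2 in M5, against 34.1, 70.9 and 42.6 in R5, and 92.2, 180.1 and 156 in M9, against 45.1, 36.9 and 20.1 in R9. The groups did not overlap on either day. The M and R changes of Kcna1 differed by a log2 of 4.16 (SE 0.61, adjusted p = 4.2e-06). Kcnh4, an ELK channel of the forebrain, read 8.98, 6.19 and 10.9 in M9, 99.8, 120.0 and 117 in B9 and 108, 61.1 and 82.6 in R9, with M9 below both. Kcnh1, of the EAG type, had its highest means in B7 and R7. It read 24.4, 59.8 and 79.3 in M7, 222, 346 and 281 in B7 and 247, 256 and 215 in R7. By day 9 it read 69.4, 61.6 and 41.1 in R9. Kcna7, a muscle channel, read 63.9, 23.7 and 12.7 in M7, 5.95, 3.90 and 1.88 in B7 and 1.61, 2.11 and 1.38 in R7 (log2 change 3.38 in M7 against R7), and all M7 libraries were the highest.

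Auxiliary potassium subunits bind these pores. Kcnab1 read 46.4, 109 and 139 in M9, 57.4, 67.2 and 58.3 in B9 and 9.07, 7.69 and 5.59 in R9. Both BMP4 groups were above R9 in every library, with log2 changes of 3.44 in M9 (SE 0.73, adjusted p = 0.00024) and 2.89 in B9. Kcnip3, a calcium sensor of the A-type channel, read 591, 641 and 521 in M9, 179, 225 and 187 in B9 and 108, 182 and 162 in R9, and M9 stood well above both. It fell in R9 against R5 (log2 change -1.23). Kcnip2 rose in M9 against M5, at 90.6, 54.7 and 83.0 in M9 and 13.5, 6.96 and 12.6 in M5 (log2 change 2.70).

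Leak channels set the resting voltage, and one of them, Kcnk3, had the largest rise of all members in M5 against R5. Kcnk3, an acid-sensitive leak channel at chr5:30588170-30625271 (mm10), read 229.7, 527 and 456 in M5, 85.7, 43.9 and 52.5 in B5 and 6.99, 9.30 and 12.4 in R5. The 3 groups did not overlap, with log2 changes of 5.21 in M5 (SE 0.45, adjusted p = 1.6e-10) and 2.52 in B5 (adjusted p = 0.00072) against R5. On day 4 the groups had overlapped, at 94.5, 37.4 and 151 in M4 and 42.2, 101 and 83.7 in R4. The M groups stayed high, at 129, 351 and 366 in M7 and 88.3, 98.4 and 135 in M9, against 7.24, 9.15 and 2.37 in R7 and 23.9, 22.6 and 14.2 in R9. The B groups read 15.2, 13.3 and 23.9 in B7, still above R7 (adjusted p = 0.021), and 18.6, 17.5 and 13.3 in B9, overlapping R9. The change over days 5 to 9 minus that in R was -2.85 in M (SE 0.64, adjusted p = 0.00084) and -2.78 in B (SE 0.64, adjusted p = 0.014).

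Other leak channels had other patterns. Kcnk9, a relative of Kcnk3, read 4.58, 2.95 and 7.68 in M9, 52.7, 30.3 and 33.9 in B9 and 14.0, 6.30 and 5.13 in R9, with B9 above both (log2 change 2.15 against R9). The call of Kcnk9 in B9 against R9 was lost without B9 replicate 1, or R9 replicate 2 or 3 (adjusted p = 0.071 to 0.082). The B and R changes of Kcnk9 over days 5 to 9 differed by a log2 of 3.55 (SE 0.83, adjusted p = 0.016). The call of Kcnk9 in the difference between the B and R changes was lost without B9 replicate 1, or B5 replicate 2, or R9 replicate 3, or R5 replicate 2 or 3 (adjusted p = 0.051 to 0.059). Kcnk1 read 558, 645 and 480.3 in M7, 221, 245 and 174 in B7 and 284, 319 and 358 in R7, and M7 was the highest. Kcnk2, a stretch-sensitive channel, read 108, 101 and 143 in M9 and 225, 349.9 and 324 in M5, with a log2 change of -1.34. The call of Kcnk2 in M9 against M5 was lost without M9 replicate 1 or 2, or M5 replicate 2 or 3 (adjusted p = 0.05 to 0.069). Kcnk10, its relative, read 1.59, 0.735 and 7.10 in M7, 10.9, 22.2 and 38.0 in B7 and 28.8, 47.1 and 11.8 in R7, lower in M7 (log2 change -2.99 against R7).

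Silent subunits, which open only together with other potassium pores, split between the BMP4 schedules. Kcnv2 read 14.5, 15.0 and 15.0 in M5, 2.73, 4.38 and 1.57 in B5 and 2.67, 1.49 and 2.67 in R5, and Kcng3 read 19.6, 20.0 and 12.8 in M5, 3.06, 4.97 and 3.79 in B5 and 2.89, 4.35 and 4.73 in R5. Both were highest in M5 (log2 change 2.30 for Kcnv2 against R5 and 1.89 for Kcng3 against B5). Kcng1 took the other side, with 55.0, 36.3 and 70.7 in M5, 173, 195 and 295 in B5 and 325, 270.2 and 304 in R5 (log2 change -2.03 in M5 against B5). Kcnf1 read 23.9, 23.9 and 20.9 in M5, 41.5, 43.4 and 37.3 in B5 and 131, 104 and 139 in R5, and was lower in B5 (log2 change -1.58) and in B7 (log2 change -1.38) than in the R group of its day. Kcng2 read 7.43, 23.6 and 21.4 in M7, 11.1, 11.5 and 12.7 in B7 and 33.8, 27.2 and 25.0 in R7, lower in B7 than in R7 (log2 change -1.21). The call of Kcng2 in B7 against R7 was lost without B7 replicate 1 or 2, or R7 replicate 1 (adjusted p = 0.054 to 0.077). By day 9 Kcnv1 was the silent subunit with the largest gap, at 19.1, 27.8 and 20.2 in M9, 1.65, 4.05 and 9.01 in B9 and 7.40, 13.7 and 12.4 in R9 (log2 change 2.17 in M9 against B9).

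Further members changed over time. Grm6, the receptor of retinal bipolar cells, read 4.94, 1.29 and 1.35 in R4, against 21.3, 39.9 and 31.0 in D3 (log2 change -3.28). Kcnj12, an inward rectifier of heart, was lower in D3 than in D0 (log2 change -1.39) and higher in R4 than in D3 (log2 change 1.54), at 296, 339.6 and 296 in D0, 186, 88.9 and 99.8 in D3 and 309, 470.3 and 283 in R4. In B9 against B5, Kcnj11, the pore of the insulin-releasing ATP-sensitive channel, fell (log2 change -1.60), as did the lymphocyte channel Kcna3 (log2 change -1.64) and the presynaptic receptor Grm8 (log2 change -1.38). The call of Kcnj11 in B9 against B5 was lost without B5 replicate 1 or 3 (adjusted p = 0.055 to 0.058). The call of Grm8 in B9 against B5 was lost without B5 replicate 3 (adjusted p = 0.073). In M9 against M5, the cardiac ERG channel Kcnh2 fell (log2 change -1.22), as did the calcium channel subunit Cacna2d2 (log2 change -1.37). Kcnh2 read 309, 323 and 390.4 in M9 and 661, 857 and 878 in M5, and Cacna2d2 read 411, 382 and 393 in M9 and 823, 1104 and 1175 in M5, without overlap in either. Kcnh5, an EAG channel, read 6.01, 13.0 and 20.0 in M5, 20.3, 16.1 and 17.2 in B5 and 2.04, 7.87 and 9.22 in R5, higher in B5 than in R5 (log2 change 1.53), and its B change to day 9 was below that of R (log2 change -2.22). The call of Kcnh5 in B5 against R5 was lost without B5 replicate 1 or 2, or R5 replicate 1 (adjusted p = 0.094 to 0.18). Without R5 replicate 1 the day 5 change was 0.98. The call of Kcnh5 in the difference between the B and R changes was lost without B9 replicate 1, 2 or 3, or B5 replicate 1, 2 or 3, or R9 replicate 1 or 2, or R5 replicate 1 or 2 (adjusted p = 0.055 to 0.14).

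Further genes of neuronal channels and receptors were also called on day 9. Scn2a1, a pore of early axons, read 38.6, 42.9 and 54.4 in M9, 139.7, 93.8 and 87.9 in B9 and 99.5, 70.7 and 41.5 in R9, lower in M9 than in B9 (adjusted p = 0.049). Kcnip4, a calcium sensor of A-type channels, read 4.58, 2.65 and 6.01 in M9, 6.32, 11.5 and 8.10 in B9 and 1.99, 2.48 and 1.89 in R9, higher in B9 than in R9 (adjusted p = 0.027). M9 and R9 overlapped for Scn2a1 and B9 and R9 did not for Kcnip4. Chrna7, the receptor subunit that forms channels of its own, read 221, 169.6 and 133 in M9, 130.1, 163 and 147 in B9 and 295, 338 and 335 in R9. It was lower in B9 than in R9 (log2 change -1.13), and every M9 library also lay below every R9 library.

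Inward rectifiers hold cells near rest or couple them to metabolism and G proteins. Kcnj8 read 81.2, 64.5 and 81.2 in M7, 88.4, 53.8 and 81.6 in B7 and 4.52, 14.9 and 2.03 in R7, and on day 9 15.8, 35.8 and 45.5 in M9, 62.7, 54.4 and 53.4 in B9 and 5.08, 10.4 and 5.42 in R9. Both BMP4 groups were above R on both days. Kcnj8 is known from mural cells of vessels, and endothelial and mesenchymal markers were higher in M7 than in R7: 6 of 6 endothelial markers rose, with sums of 1894 to 2477 in M7 and 653 to 863 in R7, and 5 of 8 mesenchymal markers rose, with sums of 33085 to 39564 in M7 and 4197 to 14474 in R7. In B7 the endothelial sums were 1333 to 1702. The mesenchymal sums there were 8947 to 19775 and overlapped those of R7. The part of these markers in the Kcnj8 changes was not tested. Kcnj3, a G-protein-gated channel, was among the members that rose most in R9 against R5, at 28.0, 40.5 and 52.5 in R9 and 1.78, 2.16 and 2.58 in R5 (log2 change 3.67, SE 0.63, adjusted p = 4.6e-05). Kcnj5, an atrial G-protein-gated channel, read 11.1, 17.4 and 4.83 in M5, 2.02, 3.75 and 1.10 in B5 and 2.54, 1.88 and 1.15 in R5 (log2 change 1.81 in M5 against B5), and Kcnj15 read 13.5, 20.1 and 21.5 in M9, 5.95, 0.818 and 4.99 in B9 and 3.39, 6.85 and 3.08 in R9 (log2 change 2.17 in M9 against B9). In both, M was highest. The call of Kcnj5 in M5 against B5 was lost without M5 replicate 2, or B5 replicate 3 (adjusted p = 0.087 to 0.1). Kcnj10, the channel of glia, read 15.7, 8.70 and 12.1 in M9, 36.2, 30.1 and 35.0 in B9 and 56.5, 67.6 and 77.8 in R9, with M9 below R9 in every library.

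Of the calcium- and sodium-activated channels, Kcnu1 and Kcnt1 were lower in B9 than in R9. Kcnu1, known from sperm, read 3.31, 1.49 and 3.57 in M9, 5.30, 6.69 and 8.82 in B9 and 18.8, 19.6 and 21.6 in R9. Both BMP4 groups were below R9 (log2 change -2.52 in M9 and -1.42 in B9). The call of Kcnu1 in B9 against R9 was lost without B9 replicate 1, 2 or 3, or R9 replicate 1, 2 or 3 (adjusted p = 0.05 to 0.12). Kcnt1, a sodium-activated channel, read 61.7, 41.4 and 30.9 in M9, 12.4, 19.6 and 10.7 in B9 and 45.0, 41.6 and 38.0 in R9, and was lower in B9 (log2 change -1.52), while M9 overlapped R9. The call of Kcnt1 in B9 against R9 was lost without B9 replicate 1 or 3, or R9 replicate 2 (adjusted p = 0.057 to 0.074). The antisense RNA Kcnq1ot1 at chr7:143203458-143296549 (minus strand) lies inside Kcnq1 at chr7:143106362-143427042 (plus strand, mm10). Whether counting used the strand is not given in the sources used here, so reads of the pair cannot be told apart for certain. Kcnq1ot1 read 375, 340.2 and 252 in M9, 215, 129 and 156 in B9 and 211, 156 and 155 in R9 (log2 change 0.88 in M9 against R9), and Kcnq1 read 27.6, 15.9 and 23.2 in M9, 14.0, 11.9 and 12.9 in B9 and 13.8, 20.6 and 9.62 in R9.

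The 6 h comparison gave no call. In B6hr against R6hr, 0 members rose and 0 fell, against 0% and 0.0178% of all genes. At an unadjusted p under 0.05 there were 16 members and 2161 genes, and the authors' deposited table called 0 members too. These 2 groups were the only pair whose same-numbered libraries deviated together, and with the replicate number as a block within the 6 libraries 26 members were called. Of these, 6 rose and 20 fell, against 10.6% and 15.3% of all genes under that fit. The largest falls were of Chrna3 (-1.29), Kcna5 (-1.26), Kcnn3 (-1.04) and Cacnb2 (-1.03), and the largest rise was of Kcnab1 (1.82), on the log2 scale. Kcnn3, a small-conductance calcium-activated channel, read 72.9, 63.7 and 38.8 in B6hr, against 134, 120.0 and 101 in R6hr. Cacnb2, a beta subunit of calcium channels, read 64.3, 80.4 and 61.3 in B6hr, against 153, 153 and 117 in R6hr. Neither pair of ranges overlapped. Chrna3 read 82.4, 68.5 and 28.9 in B6hr, against 297, 224 and 37.2 in R6hr, where each B6hr library lay below the R6hr library of its number, and R6hr replicate 3 lay within the B6hr range. Kcna5 read 32.4, 74.2 and 114 in B6hr, against 79.3, 135 and 361 in R6hr, and Kcnab1 read 15.4, 39.8 and 23.3 in B6hr, against 10.3, 2.46 and 8.40 in R6hr. These 5 members were chosen for this paragraph after their values were seen.

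Whether the change between days 5 and 9 differed between treatments was tested directly. In M, 25 members rose more, or fell less, than in R, and 24 the reverse (all genes 21.9% and 17%). For B against R the counts were 3 and 3 (all genes 1.19% and 0.918%), near the background, and the total of 6 became 2, 2, 3 and 2 without B9 replicate 1, B5 replicate 2, R9 replicate 3 and R5 replicate 2. Kcna1, Cacna1g, Gabrp and Gabra4 were among those that led the M side. Grin2c, Scn3a, Kcnu1, Grid2ip and Grin1 led the other side.

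The proteins that work with channels moved in part alongside. In B9 against B5 (all genes 20.4% higher and 23.2% lower), 8 of 12 listed genes of transmitter synthesis and transport rose and 1 fell, and of 31 genes for receptor anchoring and auxiliary proteins 14 rose and 4 fell. Of 33 other channel and receptor genes, such as the Hcn, Trp and Piezo families, 16 rose and 2 fell, and of 15 ion transporters and pumps 8 rose and 0 fell. In D3 against D0 (all genes 30.9% higher and 24% lower), 4 transmitter genes rose and 2 fell, 18 anchoring genes rose and 3 fell. Of the other channels 15 rose and 7 fell there, and of the transporters 7 rose and 5 fell. In M9 against R9 (all genes 27.5% higher and 23.5% lower), 1 transmitter gene rose and 6 fell, 4 anchoring genes rose and 8 fell. Of the other channels 11 rose and 10 fell there, and of the transporters 1 rose and 6 fell.

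Marker lists of the cell types in the cultures changed beside the member counts. Of 10 neuron markers, 5 rose and 1 fell in D3 against D0, 0 rose and 5 fell in R4 against D3, and 9 rose and 0 fell in B9 against B5. In M7 against B7, 0 rose and 9 fell, with summed levels of 2195 to 7423 in M7 and 44859 to 61273 in B7. In M9 against R9, 0 rose and 5 fell, with sums of 3074 to 4983 in M9 and 7402 to 14712 in R9. Of 6 neural progenitor markers, 6 fell in M5, 6 in M7 and 6 in M9 against R, and none rose. Cardiac markers were 1 higher and 3 lower of 8 in M5 against R5, with sums of 153 to 207 in M5 and 191 to 255 in R5. On day 7 the cardiac counts were 2 higher and 3 lower, with sums of 566 to 660 in M7 and 840 to 1061 in R7, and on day 9 1 and 4, with sums of 151 to 267 in M9 and 770 to 860 in R9. Of the 6 surface epithelium markers, 5 rose in M4, 3 in M5 and 3 in M7 against R, and none fell. Their sums were 9566 to 14899 in M4, against 3047 to 4006 in R4, and 9016 to 10795 in M5, against 4655 to 6331 in R5. The part of these lists in the member changes was not tested. In M7 against R7, 7 of 10 neuron markers and all 6 progenitor markers were lower. Of the members, 49 were lower and 43 higher there (all genes 20.6% and 22.9%). Kcnk3, Grin2c, Scn2b, Kcnab1 and Kcnj8 were among those higher.

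Gene length also went with the day 3 change. The 54 members that span over 100 kb in GENCODE M21 had a median change of 1.393 in D3 against D0, and the 88 members of 100 kb or less had 0.741. All listed genes gave 0.423 and 0.026 in the same 2 classes, and the part of length in the member changes was not tested. The 5 members without coordinates (Cacng6, Cacng7, Cacng8, Kcnn1 and Scn2a1) are in neither class.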

How the data were processed

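RNA from 45 adherent mESC cultures (15 groups of 3) was sequenced by the authors with an mRNA library kit, per the labels' protocols. The authors deposited 1 table of 11220 genes with a normalized level (a signal with no stated unit), an FPKM score column (not used), and, for 12 pairs of groups, log2 fold changes, p-values and false discovery rates. The submitters' processing notes name Picard, edgeR and the mouse build mm10, with no role or version. The aligner, annotation and normalization method have no name in the sources used here, and no read counts were used. The table keeps genes with a false discovery rate under 0.1 in at least 1 pair.

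Log2(level + 1) was fitted with limma 3.58.1 (R 4.3.3; trend, robust) over all 45 libraries with 1 coefficient per group, after requiring a level of 1 in 3 libraries, which removed 0 genes. The step was also run on simulated data. That simulation had independent noise and neither outlying nor paired libraries, so it did not test their effect. Of the 18 comparisons, 16 were pairs and 2 were differences of changes. Members and lists were chosen with earlier results of these data known. Named members were, per comparison, up to 5 with the largest called rise and 5 with the largest called fall, without overlap and with a mean of at least 5, plus 28 listed genes of a fixed set of 36. Further members (Gabre, Gabrq, Gabrr1, Grin2a, Grin2b, Kcnh1, Kcnj10, Kcnn3, Scn1a, Scn4b and Scn7a), and the values of Gabra4, Gria3, Gria4, Kcnh8, Kcnk3, Scn1a and Scn2b in comparisons where the rule did not name them, were chosen after their values were seen. Whether same-numbered libraries pair was checked from the correlation of their deviations from the group means. It was over 0.1 for every number only in B6hr and R6hr (0.586, 0.189 and 0.465). A few members that the rule names are not reported here. P-values of the main fit set each change against the spread of libraries within groups, estimated over all 15 groups and not only the compared ones. Coordinates are whole genes of GENCODE M21 on mm10, found for 142 members. The duration of RA is stated in 2 ways in the labels, and the groups titled M appear under another letter in the protocol.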

Additional observations from a re-analysis of the deposited data

Results flagged for a closer look

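The change between days 5 and 9 differed between treatments, by a test of the difference itself (limma, adjusted over all 11220 genes), for 49 members in M against R and 6 in B against R. Those given here are among the largest, up to 5 in each direction. The change in M minus the change in R was 4.16 for Kcna1 (adjusted p = 4.2e-06), 3.42 for Cacna1g (adjusted p = 0.00079), 2.80 for Gabrp (adjusted p = 0.0031) and 2.75 for Gabra4 (adjusted p = 3.5e-07) on the log2 scale. It was -3.38 for Grin2c (adjusted p = 0.017), -3.34 for Scn3a (adjusted p = 0.028), -3.28 for Kcnu1 (adjusted p = 0.00017), -3.25 for Grid2ip (adjusted p = 1.8e-05) and -3.12 for Grin1 (adjusted p = 2e-05).

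The change in B minus the change in R was 4.20 for Gria1 (adjusted p = 0.033), 3.55 for Kcnk9 (adjusted p = 0.016), 2.07 for Gabra4 (adjusted p = 0.00092), -2.88 for Kcnc4 (adjusted p = 0.017), -2.78 for Kcnk3 (adjusted p = 0.014) and -2.22 for Kcnh5 (adjusted p = 0.047). The call of Kcnc4 in the difference between the B and R changes was lost without B9 replicate 1, or B5 replicate 2, or R9 replicate 3, or R5 replicate 2 (adjusted p = 0.052 to 0.086). Both comparisons share the R libraries of days 5 and 9.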

How the results depend on the processing

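With 1 library left out, the members called numbered 77 to 83 in D3 against D0, 27 to 51 in R4 against D3, 42 to 52 in R9 against R5, 51 to 69 in B9 against B5, 44 to 51 in M9 against M5, 6 to 25 in M4 against R4, 0 to 0 in B6hr against R6hr and 5 to 10 in B5 against R5. They numbered 64 to 72 in M5 against R5, 20 to 33 in M5 against B5, 21 to 39 in B7 against R7, 77 to 90 in M7 against R7, 64 to 80 in M7 against B7, 13 to 25 in B9 against R9, 55 to 67 in M9 against R9, 59 to 65 in M9 against B9, 36 to 47 for M minus R changes and 2 to 8 for B minus R changes. Fitting the compared libraries alone gave 20 in R4 against D3, 3 in M4 against R4, 3 in B6hr against R6hr, 4 in B5 against R5, 15 in M5 against B5 and 19 in B7 against R7. Adding the replicate number as a block within the compared libraries gave 7 in R4 against D3, 20 in R9 against R5, 2 in M4 against R4, 26 in B6hr against R6hr, 0 in B5 against R5, 18 in M5 against B5, 0 in B7 against R7, 30 in M7 against R7, 44 in B9 against R9 and 1 for B minus R changes. Outside B6hr and R6hr, same-numbered libraries did not deviate together for every number. That check cannot show whether they came from the same differentiation. Where that block gave 0, 20 members in B5 against R5 and 39 in B7 against R7 had an unadjusted p under 0.05, and by the authors' deposited test 4 were higher and 7 lower in B5 against R5, and 21 higher and 11 lower in B7 against R7. The listed genes had been selected by that same deposited test, with both pairs among its 12, so its counts are no independent check. Shares of all genes under it are not given here. In B6hr against R6hr, where limma without a block called 0, 16 had an unadjusted p under 0.05 and the deposited table called 0. An adjusted p under 0.01 left 27 in R4 against D3, 6 in M4 against R4, 6 in B5 against R5, 18 in M5 against B5, 16 in B7 against R7, 9 in B9 against R9, 50 in M9 against R9, 29 for M minus R changes and 1 for B minus R changes. All other alternatives (a block over all libraries, pseudocounts of 0.1 and 5, no filter, a level of 10 in 3 libraries, quantile normalization, D0 replicate 3 as the only D0 library and, in 8 pairs, the authors' deposited test) kept each count within 1.5 times. No deposited test exists for M5 against R5, M7 against R7 and M9 against R9. The D0 alternative, and leaving out D3 replicate 1 and R7 replicate 3 for the highest groups, were chosen after seeing the data. Of 179 results on single members, each under all its alternatives, 2629 of 2869 values kept direction and call, 240 lost the call and 0 reversed. By result, 65 of the 179 lost the call under at least 1 alternative. The replicate block within the compared libraries lost 49 of the 179, an adjusted p under 0.01 lost 36, and the compared libraries alone lost 20. The sentences above on lost calls of single members cover left-out libraries only. The cause was not tested. Quantile normalization moved the median of all genes by over 0.1 in D3 against D0 (-0.049, against 0.071) and for M minus R changes (-0.033, against 0.091). The depth behind each level is unknown, so low genes carry an unknown counting error.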
